A study of Mus musculus with 26 samples.

Results

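The Zscan4 family of the mouse was followed in 6 copies, Zscan4a, Zscan4b, Zscan4c, Zscan4d, Zscan4f and Zscan4-ps1, which were chosen by name from a table of RNA-seq counts for 55291 genes. The table holds 9 entries named Zscan4, and the other 3 (Zscan4e, Zscan4-ps2 and Zscan4-ps3) were used only for comparison. All 6 copies passed the filter on low counts and were tested. The libraries came from R1 cells, a line of mouse embryonic stem cells (ESCs) kept in LIF on gelatin, and numbered 26 in 13 groups of 2 replicates. Poly(A) RNA had been sequenced. The study asked, by its design text, whether ways of inducing a totipotent-like state depend on the transcription factor DUX, on a super-enhancer at the Tdpoz genes and on the ability of DUX to form condensates.

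The groups without a genetic change were untreated cells (ESC), cells given DMSO, cells given 0.53 µM retinoic acid for 48 h (RA) and cells given 4 nM pladienolide B, a splicing inhibitor, for 4 days (PlaB). Doxycycline for 24 h induced wild-type DUX (Dux OE), the mutant DUXR70A (DuxR70A OE) or ZSCAN4 (Zscan4 OE), and the dose of 4 µg/mL was stated for the induction of DUX. Cells with Dux knockdown (Dux KD) were given RA, PlaB or Zscan4 OE, and cells with a CRISPR knockout of the Tdpoz super-enhancer (SE KO) were given RA, PlaB or Dux OE. Both Dux KD Zscan4 OE libraries have "no" as their treatment label and no time, so that their induction rests on their titles. For SE KO RA replicate 1 the title gives the knockout but the genotype label gives WT. The log2 fold changes of SE KO RA against RA are given with and without it, while marker sums and counts of other genes include it. Which Zscan4 copy the transgene encoded, which shRNA was sequenced and whether each line was 1 clone are not given in the sources used here.

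ZSCAN4 proteins carry a SCAN domain and zinc fingers, and their genes form a tandem cluster that is switched on for a short time in early cleavage-stage embryos. In ESC cultures the same genes mark a small, transient fraction of cells that resemble that stage (2C-like cells), in which ZSCAN4 has been tied to telomere lengthening and genome stability. Dux, a double-homeobox gene of the same stage, is a known activator of the family.

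In the positions of the count table, which are on the mouse build mm10 (GRCm38), the 9 entries span 819.9 kb of chromosome 7, from 10794242 to 11614112, with 44 other genes of the table between them. Zscan4a lay on the minus strand at chr7:10794242-10799057, Zscan4b on the minus strand at chr7:10900740-10905050 and Zscan4c on the plus strand at chr7:11005745-11010547. Zscan4-ps1 lay on the minus strand at chr7:11065139-11069691, Zscan4d on the minus strand at chr7:11161374-11166159 and Zscan4f on the plus strand at chr7:11397915-11402318. None of the 6 overlapped another gene of the table. GENCODE M21 gives the same spans and calls Zscan4a an unprocessed pseudogene and the other 5 protein-coding, whereas RefSeq calls both Zscan4a and Zscan4-ps1 pseudogenes. The exon lengths ranged from 1802 bases in Zscan4b to 2279 bases in Zscan4a.

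The copies are close to identical, which bears on every value below. In GENCODE M21 the coding sequences of Zscan4c, Zscan4d, Zscan4f and Zscan4-ps1 have 1518 bases each (506 codons) and that of Zscan4b has 1515. Zscan4f differed from Zscan4c at 6 of 1518 aligned coding bases, from Zscan4-ps1 at 31 and from Zscan4d at 35. To show what a read must cross to be told apart, the same coding stretch (bases 639 to 698, on the coding strand, counted from the start codon) is given for the 4 copies of equal length, with capitals where a copy differs from Zscan4c.
Zscan4c: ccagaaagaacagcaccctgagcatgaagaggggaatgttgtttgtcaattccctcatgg
Zscan4d: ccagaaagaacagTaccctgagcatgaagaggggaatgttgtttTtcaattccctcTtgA
Zscan4f: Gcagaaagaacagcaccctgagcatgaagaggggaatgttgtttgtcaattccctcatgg
Zscan4-ps1: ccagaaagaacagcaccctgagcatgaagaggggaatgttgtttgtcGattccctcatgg
Over this stretch of 60 bases Zscan4d differed from Zscan4c at 4 bases, and Zscan4f and Zscan4-ps1 at 1 each. Stretches of this length were ranked by their differing bases, and the first in which all 4 copies differ was taken. It is therefore not a typical stretch. Of all 100-base windows of the GENCODE transcripts, the share found in no other Zscan4 entry was 76.6% for Zscan4-ps1, 70.4% for Zscan4d, 60.9% for Zscan4a, 27.2% for Zscan4c, 23.7% for Zscan4b and 19.4% for Zscan4f. How reads that fit several places were treated is not given in the sources used here, so the count of any single copy is uncertain, and that of Zscan4b, Zscan4c and Zscan4f rests on the fewest distinct windows.

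**Figure D1:**
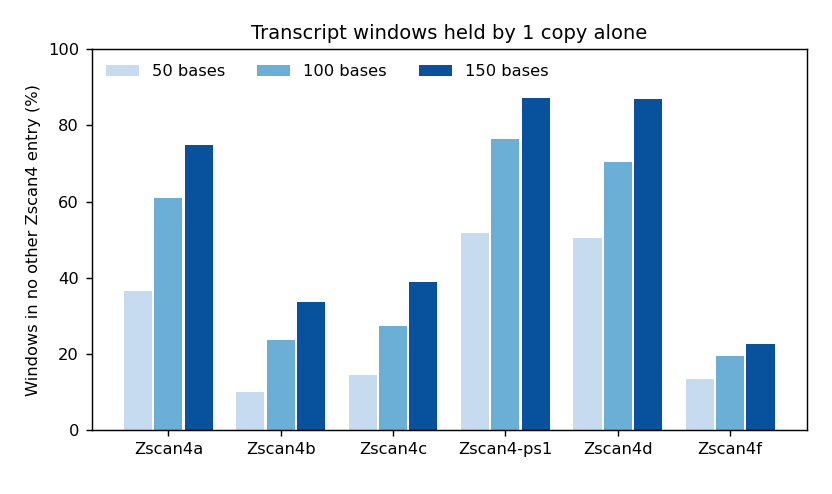
Percentage of transcript windows of 50, 100 and 150 bases (bar colour, vertical axis from 0 to 100%) that occur in no other Zscan4 entry, for the 6 copies in their order along the chromosome. Zscan4a, Zscan4-ps1 and Zscan4d reached 60.9, 76.6 and 70.4% at 100 bases, while Zscan4b, Zscan4c and Zscan4f reached 23.7, 27.2 and 19.4%.

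The RefSeq promoter table (GRCm38.p6) has an entry for 4 of the 6 copies, Zscan4b, Zscan4c, Zscan4d and Zscan4f. The 250 bases before each start are shown because the family rose with Dux in every Dux OE library, with capitals at AATCA and its reverse complement TGATT, the core of the DUX motif. They lie at chr7:10905051-10905300 on the minus strand for Zscan4b, chr7:11005495-11005744 on the plus strand for Zscan4c, chr7:11166149-11166398 on the minus strand for Zscan4d and chr7:11397665-11397914 on the plus strand for Zscan4f, each printed on the strand of its gene. For Zscan4d the RefSeq start lies inside the span given above, so bases 11166149 to 11166159 of its window fall within that span.
Zscan4b: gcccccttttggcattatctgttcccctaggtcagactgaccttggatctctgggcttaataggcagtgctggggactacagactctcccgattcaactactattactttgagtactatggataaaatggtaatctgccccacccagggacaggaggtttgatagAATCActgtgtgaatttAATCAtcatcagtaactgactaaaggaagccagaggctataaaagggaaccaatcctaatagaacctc
Zscan4c: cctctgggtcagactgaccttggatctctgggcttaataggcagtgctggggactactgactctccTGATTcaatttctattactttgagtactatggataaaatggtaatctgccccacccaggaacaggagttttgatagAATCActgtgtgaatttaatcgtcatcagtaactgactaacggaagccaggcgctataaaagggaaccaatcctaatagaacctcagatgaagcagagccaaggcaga
Zscan4d: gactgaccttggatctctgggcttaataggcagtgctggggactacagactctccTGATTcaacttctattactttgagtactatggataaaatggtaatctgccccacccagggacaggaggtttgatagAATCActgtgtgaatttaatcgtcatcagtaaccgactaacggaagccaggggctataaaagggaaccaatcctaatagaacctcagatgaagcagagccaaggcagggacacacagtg
Zscan4f: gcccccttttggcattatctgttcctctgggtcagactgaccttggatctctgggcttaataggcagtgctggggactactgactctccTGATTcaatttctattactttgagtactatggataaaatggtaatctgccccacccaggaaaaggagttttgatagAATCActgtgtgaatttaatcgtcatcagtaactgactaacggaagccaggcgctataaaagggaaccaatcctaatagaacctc
Each of the 4 held 2 such cores, a number that 9.13% of 32817 mouse promoter windows of this length reach, and 33.7% hold at least 1. Zscan4c, Zscan4d and Zscan4f shared a TGATT followed by an AATCA, which in Zscan4f began 161 and 85 bases before the start. Zscan4b had no TGATT, and its 2 AATCA began 85 and 68 bases before the start. The full DUX palindrome (TGATT, 1 base of any kind, AATCA; both strands; each match also counts for the core) was in none of the 4 windows and in 0.0305% of all promoters, and the ZSCAN4 motif TGCACAC was in none of the 4 and in 3.67% of all. Aligned to each other, the windows of Zscan4c and Zscan4f differed at 1 of 227 bases and those of Zscan4b and Zscan4f at 13 of 250.

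Library totals ranged from 14401452 to 39402840 counts (median 18276934), and 3 counts, taken as the floor below which a level is not read, were worth between 0.0761 and 0.208 CPM (counts scaled to a common library total). The 2 replicates of a group correlated at r between 0.981 and 0.993 across genes and always differed by more than sampling noise. The ESC markers Pou5f1, Sox2, Nanog, Esrrb and Zfp42 were present in all 13 groups, with a summed level between 1261 CPM in SE KO RA and 5120 CPM in Dux KD Zscan4 OE. Summed markers of primitive endoderm (Gata4, Gata6, Sox17, Pdgfra) reached 42 to 77.3 CPM in RA, SE KO RA, Dux KD RA and SE KO PlaB and 3.49 to 3.60 CPM in ESC. Their part in the levels of the family was not tested. Duxf3, the table's entry for Dux, was called lower with the knockdown, with log2 fold changes of -1.93 ± 0.45 (SE) under RA (edgeR adjusted p = 0.0011), -7.92 ± 0.67 under PlaB and -5.00 ± 0.93 under Zscan4 OE. The last 2 sizes are uncertain, since Duxf3 had 1 count over both libraries in Dux KD PlaB and 1 in Dux KD Zscan4 OE, below the floor.

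Summed over the 6 copies, the family ran from 0.627 ± 0.176 CPM in DuxR70A OE to 9720 ± 45.3 CPM in PlaB (mean ± SD, n = 2 libraries here and below). PlaB was followed by Dux OE at 4651 ± 128 CPM, SE KO Dux OE at 2168 ± 242 CPM, SE KO PlaB at 739 ± 142 CPM and RA at 580 ± 64.1 CPM. The family thus took 1.08 and 1.10% of all counts in the PlaB libraries and 0.00310 and 0.00291% in ESC. Below RA came Zscan4 OE at 471 ± 17.6 CPM, Dux KD RA at 434 ± 8.21 CPM, SE KO RA at 63.7 ± 1.52 CPM and ESC at 33.7 ± 1.39 CPM. Dux KD Zscan4 OE followed at 20.4 ± 1.86 CPM, DMSO at 7.84 ± 0.464 CPM and Dux KD PlaB at 7.68 ± 0.805 CPM. DMSO and Dux KD PlaB were the only neighbours in this order whose libraries overlapped. In a mixed culture fewer positive cells and less RNA per positive cell cannot be told apart from these sums.

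**Figure D2:**
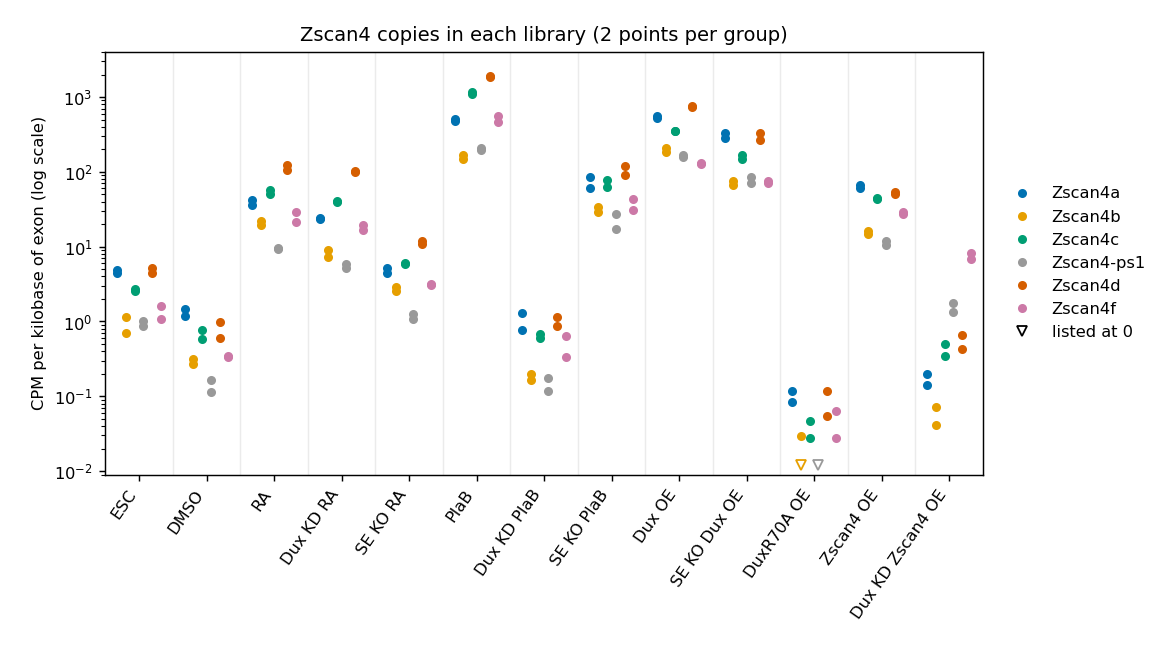
Level of each copy in CPM per kilobase of exon (vertical axis, log scale) in each of the 26 libraries, 2 points per copy and group, with open triangles where a library had no count. In PlaB Zscan4d reached 1856 and 1938 CPM per kilobase, and in DuxR70A OE the highest values were 0.118, for Zscan4a and Zscan4d.

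The order of the groups was not the same for each copy. On TMM-scaled totals, Zscan4c, Zscan4d, Zscan4f and Zscan4-ps1 were highest in PlaB, whereas Zscan4a and Zscan4b were highest in Dux OE. Zscan4a stood at 1196 and 1265 CPM in Dux OE and at 1093 and 1143 CPM in PlaB, so the 2 groups did not overlap on that scale. On library totals alone its order turned, with means of 550.6 CPM per kilobase of exon in PlaB and 495.1 in Dux OE. Zscan4b was then at 178.1 CPM per kilobase in both, so where these copies were highest depends on the scaling. Zscan4c stood at 811 and 810 CPM in Dux OE and at 2670 and 2516 CPM in PlaB. Zscan4d, the copy with the most counts in both groups, stood at 1659 and 1706 CPM in Dux OE and at 4217 and 4404 CPM in PlaB. At the other end Zscan4f was higher in Dux KD Zscan4 OE (16.0 and 13.2 CPM) than in SE KO RA (6.14 and 6.01 CPM) or ESC (3.11 and 2.13 CPM), unlike Zscan4a, which was at 0.324 and 0.451 CPM in Dux KD Zscan4 OE and 10.1 and 10.99 CPM in ESC. Several neighbours in the order of a copy overlapped, among them SE KO PlaB and Zscan4 OE for Zscan4a, RA, SE KO PlaB and Dux KD RA for Zscan4d, and Zscan4 OE and RA for Zscan4f.

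Per kilobase of exon, Zscan4d had the highest mean of the 6 copies in 7 groups, Zscan4a in 5 and Zscan4f in 1 (Dux KD Zscan4 OE). In ESC, where Zscan4d led, its libraries overlapped those of Zscan4a. In RA Zscan4d was at 123 and 106 CPM per kilobase, against 57.7 and 49.9 for Zscan4c, 42.6 and 36.5 for Zscan4a, 29.5 and 21.4 for Zscan4f, 22.1 and 19.8 for Zscan4b and 9.66 and 9.40 for Zscan4-ps1. Zscan4a led in DMSO and Zscan4 OE, and in SE KO Dux OE, Dux KD PlaB and DuxR70A OE, where its libraries overlapped those of Zscan4d, with 61.0 and 67.0 CPM per kilobase in Zscan4 OE against 51.0 and 53.5 for Zscan4d. The annotated pseudogene Zscan4a was thus among the more abundant copies at the level of reads. When the length was limited to windows of 100 bases held by 1 copy alone, a scale added after the data were seen, Zscan4c was highest in 10 and Zscan4f in 2 of the 12 groups with enough counts, and Zscan4d in none. Which copy is the most abundant could therefore not be read from these counts.

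Shares of the family were read in the 12 groups with at least 100 counts over the 6 copies in both libraries. DuxR70A OE, with 14 and 8 counts, was left out. With 2 libraries a group no exact permutation test can fall below p = 0.333, so shares are given as values. Zscan4d held the largest mean share in 8 groups, Zscan4a in 3 (DMSO, SE KO Dux OE and Zscan4 OE) and Zscan4f in 1 (Dux KD Zscan4 OE). In Dux KD PlaB, where Zscan4d led by the mean, it held 24.3 and 37.0% and Zscan4a 35.7 and 24.4%, so the libraries disagreed on the order. In untreated ESC the shares of the 2 libraries were 34.5 and 31.0% for Zscan4d, 29.1 and 33.6% for Zscan4a and 16.5 and 18.7% for Zscan4c. Zscan4f held 8.98 and 6.52%, Zscan4b 5.92 and 3.87% and Zscan4-ps1 5.03 and 6.31%. In DMSO, with 144 and 137 family counts, the share of Zscan4a was 32.6% (95% Wilson interval 25.5 to 40.7%) and 44.5% (36.5 to 52.9%), and these intervals cover counting error only.

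The inductions differed in their mix of copies. PlaB libraries held 11.2 and 11.8% Zscan4a and 2.77 and 3.11% Zscan4b, against 26.2 and 26.7% Zscan4a and 7.23 and 7.80% Zscan4b in Dux OE. The share of Zscan4c was 27.4 and 25.97% in PlaB and 17.8 and 17.1% in Dux OE, and that of Zscan4f 11.3 and 9.39% against 5.41 and 5.36%. RA lay between them for Zscan4a, at 15.5 and 15.6%, and was close to PlaB for Zscan4d, at 44.8 and 45.2% against 43.2 and 45.5%. Zscan4 OE was near ESC for Zscan4a, at 30.3 and 31.6%, and had less Zscan4d, at 25.3 and 25.1%. For each copy named, PlaB and Dux OE differed by more than the replicates of either group.

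**Figure D3:**
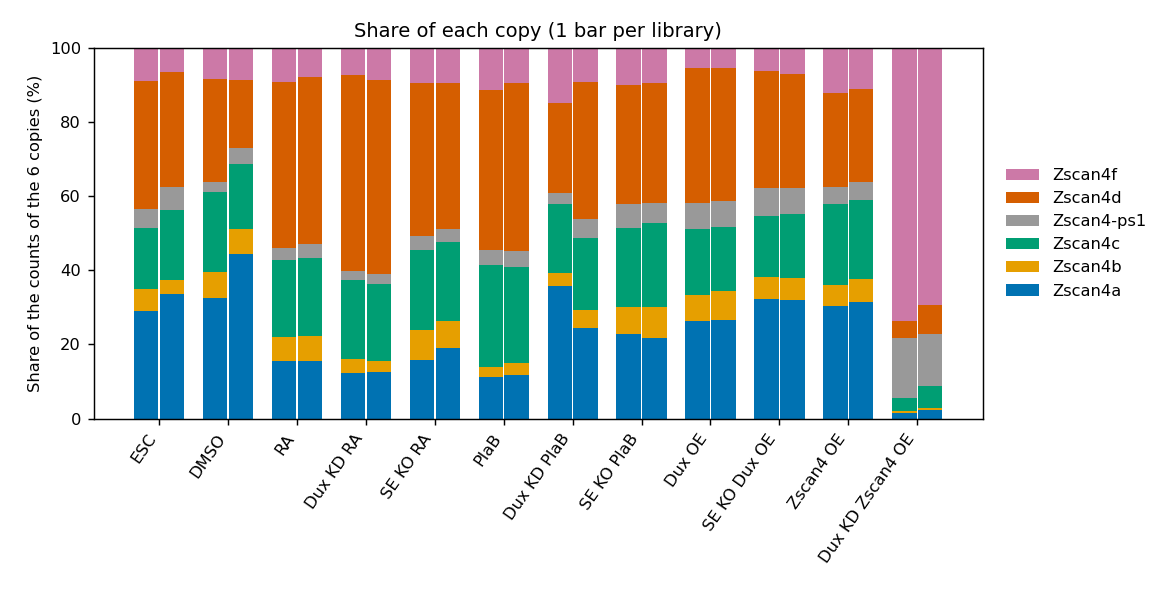
Share of each copy in the counts of the 6 copies (vertical axis, %), 1 stacked bar per library and 2 bars per group. Zscan4f filled 73.7 and 69.3% of the Dux KD Zscan4 OE bars and between 5.36 and 15.0% of all others.

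All 6 copies rose in each induction. In RA against DMSO all 6 were called higher (Benjamini-Hochberg adjusted p under 0.05 in edgeR's quasi-likelihood test over 20953 genes, and a log2 fold change of 1 or more in size), where 20.6% of all genes were. Zscan4d rose most, from 2.27 and 1.37 CPM to 280 and 242 CPM, a log2 fold change of 7.16 ± 0.18 (SE, adjusted p = 1.16e-22), and Zscan4a least, by 4.90 ± 0.17 (adjusted p = 1.75e-18). The median of the 6 was 6.17, beside 0.11 over all genes tested. In PlaB against DMSO all 6 were called higher, beside 32.3% of all genes, with a median of 10.51 and a range from 8.54 ± 0.18 (Zscan4a) to 11.21 ± 0.19 (Zscan4d). The median over all genes was 0.22 there. Zscan4a and Zscan4b, at 9.06 ± 0.18, rose less in PlaB than the other 4 copies, which lay between 10.48 and 11.21.

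In Zscan4 OE against ESC the 6 copies were called higher, beside 7.28% of all genes, with log2 fold changes from 3.42 ± 0.14 (Zscan4d) to 4.37 ± 0.22 (Zscan4f). Zscan4f rose from 3.11 and 2.13 CPM to 56.1 and 53.1 CPM. Whether reads from the ZSCAN4 transgene were counted on these copies was not tested. In Dux OE against ESC the 6 copies were called higher as well, beside 7.39% of all genes, from 6.57 ± 0.21 (Zscan4f) to 7.70 ± 0.16 (Zscan4b), with a median of 7.17. Dux OE exceeded Zscan4 OE in all 6 copies, beside 8.42% of all genes, by between 2.197 ± 0.15 (Zscan4f) and 3.87 ± 0.15 (Zscan4-ps1). Summed ESC markers were lower in RA and PlaB, at 2284 to 2338 CPM in RA and 1642 to 1649 CPM in PlaB against 4428 to 4594 CPM in DMSO. Of the 5 markers, 4 were called lower in RA and 4 in PlaB. Zfp42 went against the sum in PlaB, from a mean of 946.1 CPM in DMSO to 1250 CPM, and Nanog changed little in RA, from 911.2 to 866.6 CPM. The part of these markers in the inductions was not tested. DMSO was below ESC in all 6 copies, beside 7.96% of all genes, with a median of -1.96, so the choice of control changes the size of an induction but none of these calls.

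**Figure D4:**
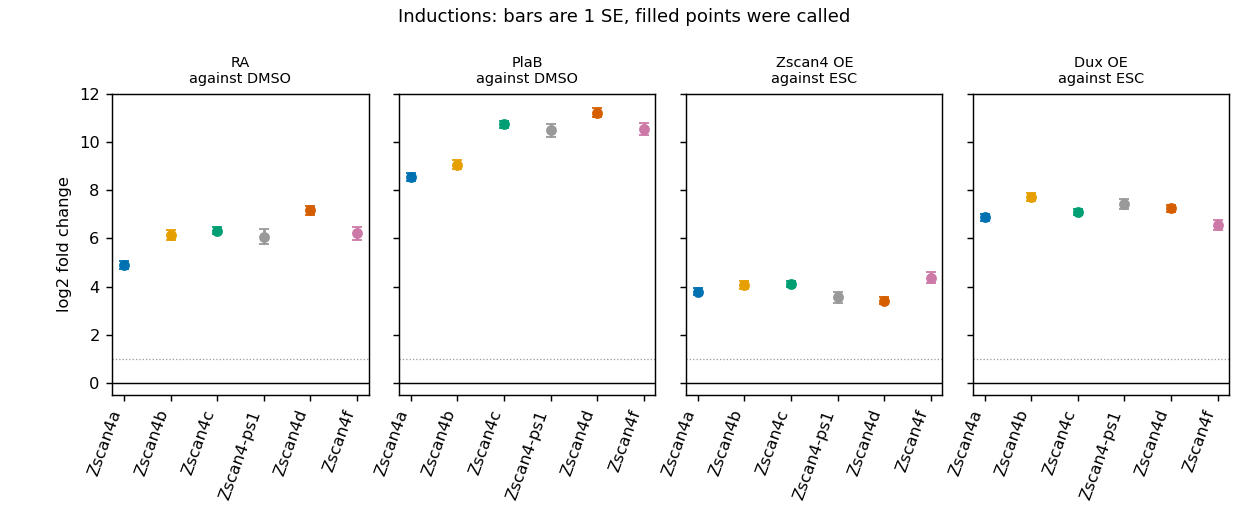
log2 fold change of each copy (vertical axis, points; bars are 1 SE) in the 4 inductions against their controls, with filled points for copies that were called and dotted lines at a log2 fold change of 1. Every point was called, and PlaB gave the highest values, between 8.54 and 11.21.

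With the mutant DUXR70A, the family fell below its level in untreated cells. In DuxR70A OE the 2 libraries held 5 and 3 counts of Zscan4a, 5 and 2 of Zscan4d, 2 and 1 of Zscan4c, 1 and 2 of Zscan4f, 1 and 0 of Zscan4b and none of Zscan4-ps1. In ESC the same copies had between 19 (Zscan4b) and 192 counts (Zscan4d) in a library. All 6 copies were called lower in DuxR70A OE than in ESC, beside 6.74% of all genes, and lower than in Dux OE, beside 7.51% of all genes. Pooled over libraries, Zscan4a was 45.5-fold lower than in ESC (95% counting interval 22.8 to 106) and Zscan4d 54.7-fold lower (26.2 to 137). Zscan4-ps1, with no count, was at least 21.9-fold lower than in ESC and at least 3784-fold below Dux OE, taking 3 counts over the group as the floor. Zscan4b, with 1 count, was 57.8-fold lower than in ESC with an interval from 9.93 to 2328. Fitted fold changes of these copies depend on the prior count and are not given. Duxf3 had no count in either DuxR70A OE library and 4.01 and 3.24 CPM in Dux OE, so this entry gives no check of the mutant transgene.

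Dux knockdown left most of the family in RA. All 6 log2 fold changes of Dux KD RA against RA were below 0, but Zscan4b alone was called, beside 4.56% of all genes called lower. Zscan4b fell from 39.8 and 35.6 CPM to 16.2 and 13.3 CPM, a log2 fold change of -1.35 ± 0.12 (SE, edgeR adjusted p = 3.87e-10). Zscan4-ps1 (-0.80 ± 0.17), Zscan4a (-0.74 ± 0.12), Zscan4f (-0.51 ± 0.15) and Zscan4c (-0.42 ± 0.09) passed the adjusted p but not the fold. Zscan4d stood at 280 and 242 CPM in RA and at 233 and 224 CPM in Dux KD RA, and its log2 fold change was -0.19 ± 0.11 (adjusted p = 0.192), which the test did not tell from 0. The share of Zscan4d was accordingly 52.9 and 52.2% in Dux KD RA against 44.8 and 45.2% in RA, and that of Zscan4b 3.68 and 3.10% against 6.37 and 6.66%. Summed primitive endoderm markers were at 71.2 to 73.6 CPM in Dux KD RA and 48.2 to 51.8 CPM in RA. Summed ESC markers were at 2770 to 2794 CPM and 2284 to 2338 CPM. Sox2 went against that sum, from a mean of 262.2 CPM in RA to 233.8 CPM, as did Esrrb, from 516.5 to 380.9 CPM. The part of both sets of markers in the difference was not tested. Of the entries outside the 6, Zscan4-ps3 was called lower (-1.27 ± 0.11), while Zscan4e (-0.96 ± 0.09), whose coding sequence differed from that of Zscan4b at 4 of 1515 bases, missed the fold.

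In PlaB the knockdown left the family near its level in DMSO. All 6 copies were called lower in Dux KD PlaB than in PlaB, beside 28.8% of all genes, with log2 fold changes from -8.90 ± 0.19 (Zscan4a) to -10.86 ± 0.19 (Zscan4d). Zscan4c fell from 55218 and 55541 counts to 26 and 23. Zscan4a was at 2.95 and 1.73 CPM in Dux KD PlaB and at 2.67 and 3.34 CPM in DMSO, and the libraries of these groups overlapped also for Zscan4c, Zscan4d, Zscan4f and Zscan4-ps1. Zscan4b was at 0.295 and 0.359 CPM against 0.567 and 0.493 CPM in DMSO. Summed ESC markers moved the other way, from 1642 and 1649 CPM in PlaB to 3619 and 3628 CPM in Dux KD PlaB. Of these markers Zfp42 alone fell, from a mean of 1250 to 828 CPM. The part of the ESC markers in the fall of the family was not tested.

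In Zscan4 OE the knockdown split the copies. All 6 were called lower in Dux KD Zscan4 OE than in Zscan4 OE, beside 5.37% of all genes, but the log2 fold changes ran from -8.55 ± 0.24 (Zscan4a, adjusted p = 9.55e-20) to -1.89 ± 0.17 (Zscan4f, adjusted p = 2.75e-08). Zscan4b changed by -7.98 ± 0.29, Zscan4c by -6.74 ± 0.17, Zscan4d by -6.60 ± 0.20 and Zscan4-ps1 by -2.84 ± 0.21. The 2 libraries held 247 and 176 counts of Zscan4f and 54 and 36 of Zscan4-ps1, but no more than 20 of any other copy. Zscan4f thus made up 73.7 and 69.3% of the family and Zscan4-ps1 16.1 and 14.2%, against 12.2 and 10.995% and 4.56 and 4.95% in Zscan4 OE. The same libraries held little of the near-identical entry Zscan4-ps2, at 0.199 and 0.0661 CPM per kilobase against 8.18 and 6.76 for Zscan4f, although the coding sequences of the 2 differ at 4 of 1518 bases. Whether transgene reads were counted on Zscan4f and Zscan4-ps1 was not tested, since the transgene sequence was not used here.

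The effect of the knockdown itself differed between inductions. Tested as interactions in the same model, it was larger in PlaB than in RA for all 6 copies, beside 26.7% of all genes that differed in that direction, and larger in Zscan4 OE than in RA for all 6, beside 6.21%. Between PlaB and Zscan4 OE it was larger in PlaB for Zscan4c, Zscan4d, Zscan4f and Zscan4-ps1, beside 23.6% of all genes. For Zscan4a the difference of those effects was -0.35 ± 0.61 (adjusted p = 0.653) and for Zscan4b -1.77 ± 1.05 (adjusted p = 0.151), with standard errors too large to show that the effects were alike. What was left of Duxf3 differed as well. Its counts were 16 and 6 in Dux KD RA, 1 and 0 in Dux KD PlaB and 1 and 0 in Dux KD Zscan4 OE, against 49 and 59 in RA, 191 and 181 in PlaB and 27 and 17 in Zscan4 OE. The knockdown effect on Duxf3 was larger in PlaB than in RA by -5.99 ± 1.04 (SE, edgeR adjusted p = 9.68e-06), a value that rests on 1 count in Dux KD PlaB. In Zscan4 OE against RA that difference was -3.07 ± 1.24 (adjusted p = 0.0627). The part of the remaining Duxf3 in the differences of the family was not tested.

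**Figure D5:**
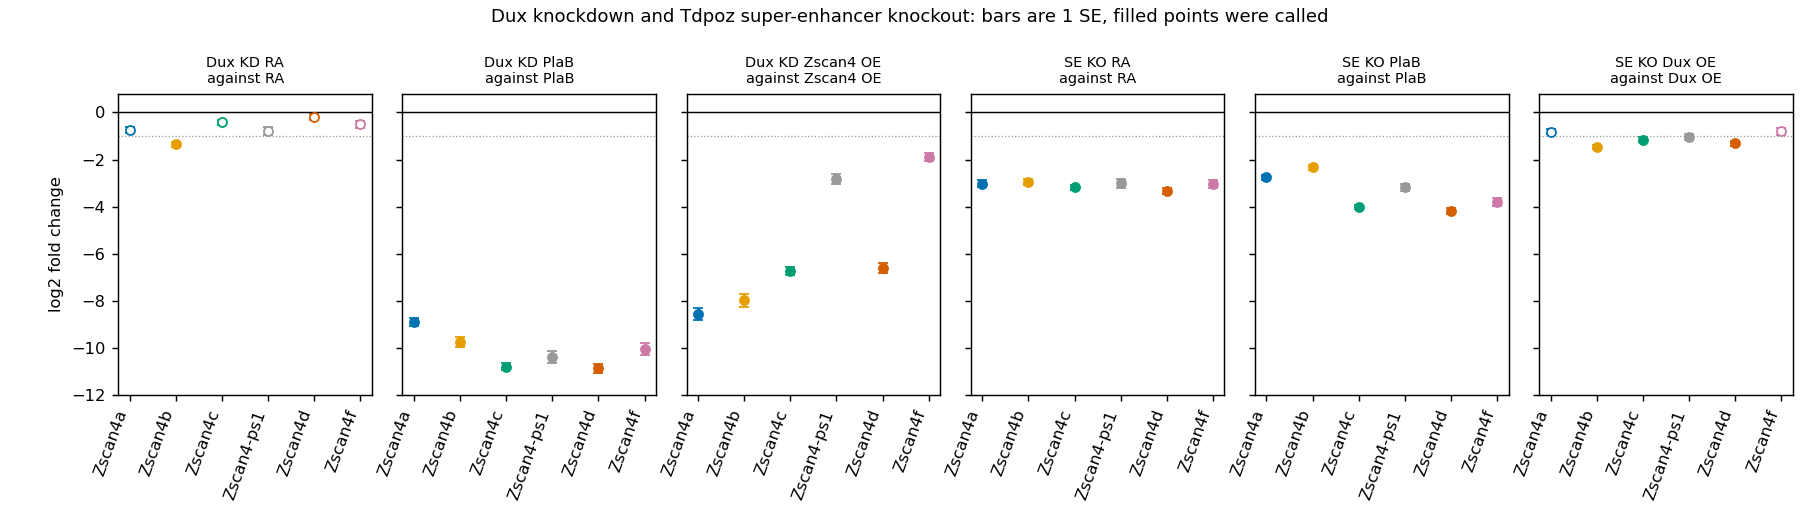
log2 fold change of each copy (vertical axis, points; bars are 1 SE) with Dux knockdown in RA, PlaB and Zscan4 OE and with knockout of the Tdpoz super-enhancer in RA, PlaB and Dux OE, with filled points for copies that were called and a dotted line at -1. Under Dux knockdown in Zscan4 OE, Zscan4f (-1.89) and Zscan4-ps1 (-2.84) lay apart from the other 4 copies (-8.55 to -6.60), whereas the 6 copies lay between -3.35 and -2.94 under the knockout in RA.

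Knockout of the Tdpoz super-enhancer lowered the family in RA and PlaB. In SE KO RA against RA all 6 copies were called lower, beside 11% of all genes, within a narrow range from -2.94 ± 0.13 (Zscan4b) to -3.35 ± 0.13 (Zscan4d). Zscan4d fell from 280 and 242 CPM to 26.6 and 24.6 CPM. The shares of the copies moved by no more than 4.73 percentage points in this comparison. Without SE KO RA replicate 1, whose genotype label goes against its title, the log2 fold changes ran from -2.93 (Zscan4a) to -3.40 (Zscan4d) and all 6 calls held. That library had 64.7 CPM over the family and the other replicate 62.6 CPM, against 625 and 535 CPM in RA. Summed ESC markers were lower in the knockout too, at 1261 to 1280 CPM against 2284 to 2338 CPM in RA. Of the 5, 2 were called lower, while Pou5f1 went the other way, from a mean of 327.7 to 461.5 CPM. The part of these markers in the fall of the family was not tested.

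In SE KO PlaB against PlaB all 6 copies were called lower, beside 26.1% of all genes, with log2 fold changes that varied more between copies. Zscan4d changed by -4.18 ± 0.13, Zscan4c by -4.01 ± 0.10 and Zscan4f by -3.80 ± 0.15, while Zscan4-ps1 changed by -3.18 ± 0.14, Zscan4a by -2.76 ± 0.12 and Zscan4b by -2.33 ± 0.10. Zscan4b went from 270 and 301 CPM in PlaB to 61.0 and 52.7 CPM, and its share of the family from 2.77 and 3.11% to 7.27 and 8.25%. Of the entries outside the 6, Zscan4e (-2.23 ± 0.09) lay near Zscan4b, and Zscan4-ps2 (-4.24 ± 0.12) near Zscan4d. Summed markers of other states were higher in SE KO PlaB. ESC markers summed to 1642 to 1649 CPM in PlaB and to 3099 to 3384 CPM in SE KO PlaB. Zfp42 went against that sum, from a mean of 1250 to 870.5 CPM. Primitive endoderm markers summed to 22.7 to 26.5 CPM in PlaB and to 65.1 to 77.3 CPM in SE KO PlaB. The part of both sets of markers in the fall of the family was not tested.

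With Dux OE the knockout left more of the family in place. In SE KO Dux OE against Dux OE, Zscan4b (-1.47 ± 0.10), Zscan4d (-1.31 ± 0.11), Zscan4c (-1.15 ± 0.09) and Zscan4-ps1 (-1.06 ± 0.13) were called lower, beside 3.84% of all genes. Zscan4a (-0.82 ± 0.12, adjusted p = 1.02e-05) and Zscan4f (-0.80 ± 0.14, adjusted p = 0.000233) passed the adjusted p but not the fold. The call of Zscan4-ps1 lay at the fold threshold and was lost without SE KO Dux OE replicate 2 (-0.90) or without Dux OE replicate 2 (-0.99). Zscan4d went from 1659 and 1706 CPM to 741 and 613 CPM, and Zscan4a from 1196 and 1265 CPM to 757 and 641 CPM. Summed fibroblast markers (Col1a1, Col1a2, Thy1, Postn) were higher in SE KO Dux OE, at 112.3 and 112.5 CPM against 44.5 and 47.1 CPM, and their part in the difference was not tested. Tested as interactions, the knockout lowered all 6 copies less in Dux OE than in RA, beside 12.1% of all genes that differed in that direction, and 5 copies, all but Zscan4b, less in Dux OE than in PlaB, beside 20.6%. Between PlaB and RA the effects differed in no copy by the fold criterion, beside 49% of all genes that differed in either direction, although 4 copies passed the adjusted p. In edgeR 4 copies also had an unadjusted p under 0.05, and DESeq2 called 0 by the same criteria. Those were Zscan4b, which fell less in PlaB by 0.61 ± 0.17, and Zscan4c (-0.84 ± 0.14), Zscan4d (-0.83 ± 0.16) and Zscan4f (-0.76 ± 0.23), which fell more.

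Other genes of the same program were read from lists that were chosen with results of these data known. Of 28 tested 2C genes outside the family (among them Zfp352, the Usp17l and Tdpoz genes and Duxf3), 25 were called higher in RA, 26 in PlaB, 24 in Zscan4 OE and 27 in Dux OE, beside 20.6, 32.3, 7.28 and 7.39% of all genes. Their median log2 fold changes were 6.05, 7.74, 2.91 and 6.93. In Dux KD RA against RA, 8 of the 28 were called lower and 1 higher, beside 4.56 and 6.44% of all genes. The 8 include Duxf3, which the knockdown itself targets. The largest falls there were those of Usp17la (-2.74), Usp17lb (-2.23), Duxf3 (-1.93) and Usp17le (-1.80). In Dux KD PlaB 26 and in Dux KD Zscan4 OE 24 of the 28 were called lower, beside 28.8 and 5.37% of all genes. Duxf3 is counted there as well. The knockout of the super-enhancer lowered 21 of the 28 in RA, 19 in PlaB and 9 in Dux OE, beside 11, 26.1 and 3.84% of all genes, and DuxR70A OE was called lower than ESC in 16, beside 6.74%. The Tdpoz genes, whose super-enhancer was removed, are among the 28, and no count without them or without Duxf3 was made.

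In RA, PlaB and Dux OE the other SCAN zinc finger genes were called in no larger share than all genes. Of all genes RA raised 20.6% and lowered 10.4%, PlaB raised 32.3% and lowered 26.6%, and Dux OE raised 7.39% and lowered 2.14%. Of 20 tested members of the Zscan and Zkscan genes elsewhere in the genome, 2 were called higher and 1 lower in RA, 5 and 5 in PlaB, and 1 was called higher in Dux OE, where the median log2 fold change was -0.18. Of 18 known regulators of the 2C state, 1 was called higher and 5 lower in RA, while PlaB gave 4 and 11 and Dux OE 2 and 1, to be read against the same shares of all genes. Among them Dppa2, an activator of Dux, rose by 1.07 in RA and by 3.46 in PlaB, and Trim28, a repressor of Dux, fell by 2.87 in PlaB. Tet2, which oxidises methylated cytosine, changed by -2.08 ± 0.15 (SE) in RA and by -1.66 ± 0.15 in Dux OE, and by 1.82 ± 0.15 in Dux KD RA against RA. Nelfa, which is linked to the 2C state, rose by 2.29 in PlaB and by 2.22 in Dux OE on the log2 scale. Of 11 tested genes of telomere upkeep and recombination, 2 were called higher in Zscan4 OE, beside 7.28% of all genes, while 3 fell in RA, beside 10.4%, and 8 fell and 1 rose in PlaB, beside 26.6 and 32.3%. The 2 that rose in Zscan4 OE were the meiotic genes Dmc1, by 1.09, and Smc1b, by 1.48, and both were among those that fell in RA, by 1.80 and 2.01.

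Across all 26 libraries the copies followed each other. Pearson's r of their log2 CPM, given as a description over libraries that share groups and depth, lay between 0.89 (Zscan4a with Zscan4f) and 0.997 (Zscan4c with Zscan4d). Of 13361 genes outside the family whose log2 CPM averaged 1 or more, the 10 most like the sum of the 6 copies were Gm5662 (r = 0.986), Gm5039 (0.984), Gm8300 (0.983), Gm8332 (0.981), Gm21939 (0.978), Gm21936 (0.976), BB287469 (0.976), Gm2056 (0.971), Gm5788 (0.971) and Eif4a3l1 (0.971). Gm5662 was at 1288 ± 26.99 CPM in PlaB, 792 ± 52.3 CPM in Dux OE, 154 ± 28.2 CPM in RA and 11.2 ± 0.921 CPM in ESC. Under the knockdown in RA it was at 147 ± 2.70 CPM, with a log2 fold change of -0.07 ± 0.12 (edgeR adjusted p = 0.703). None of the 10 was called in that comparison, where 4.56% of all genes were called lower and 6.44% higher. The 10 were chosen by likeness over all 26 libraries, RA and Dux KD RA included, so a change like the family's there is partly built in. Eif4a3l1 (-0.97 ± 0.14, adjusted p = 4.03e-06), Gm8332 (-0.88 ± 0.13), Gm21939 (-0.54 ± 0.11), Gm5039 (-0.53 ± 0.12), Gm5788 (-0.48 ± 0.16) and Gm21936 (-0.35 ± 0.13) passed the adjusted p without the fold. Whether these changes differed from that of Zscan4b was not tested.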

How the data were processed

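Poly(A) RNA-seq libraries of mouse R1 ESCs (26 libraries, 13 groups, NEBNext Ultra II RNA kit) were read from the table of whole-number counts per gene that the authors deposited, without normalization and with positions and exon lengths. The submitters' processing notes name FastQC, Trimmomatic, STAR, featureCounts, DESeq2 and mm10. Their versions, the strand setting and the handling of reads that fit several places are not given in the sources used here. Groups, doses and times came from the sample labels.

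Counts were tested with edgeR 4.0.16 (R 4.3.3): TMM, filterByExpr, 1 quasi-likelihood model of all 26 libraries, Benjamini-Hochberg adjustment over 20953 genes, and a prior count of 0.125. The SE of a log2 fold change is its absolute value over the square root of the F statistic of its test. It is approximate and can be too small where a group has few counts. Genes were called at an adjusted p under 0.05 with a log2 fold change of 1 or more in size, in 14 comparisons and 6 differences of effects. Levels are CPM on TMM-scaled totals, and levels of different copies were compared per kilobase of exon. Shares are counts of a copy over the counts of the 6 copies. The study calls the libraries of the super-enhancer knockout in RA and Dux OE biological replicates. For the other groups the sources used here do not say whether replicates came from separate cultures, so p-values measure only the spread between these libraries. Same-numbered replicates did not deviate together (r between -0.066 and 0.0238), and the labels tie the numbers to no shared batch. On counts simulated for PlaB against DMSO over 18510 genes, the test recovered 93.5% of 200 genes shifted by 2 on the log2 scale, with 1 false call. For the knockdown effect in PlaB against RA, simulated the same way, it recovered 85.5% of 200, with 8 false calls. Both simulations used a dispersion of 0.02. The copies changed by other amounts and had few counts in some groups, so these rates do not give the recovery for them.

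Transcripts and coding sequences were taken from GENCODE M21 and promoters from RefSeq (GRCm38.p6). Identities were computed with Biopython 1.88. The members, gene lists and tests were chosen with earlier results of these data known. The rule for named genes takes the 6 copies, the other 3 Zscan4 entries, Duxf3, for each list the 4 called genes with the largest absolute change in RA, PlaB, Dux OE or Dux KD RA, and the 10 genes most like the family. Alternatives were RLE or library-size scaling, no low-count filter, DESeq2 1.42.0, only the groups compared, the replicate block, no fold criterion, the other control, other totals for shares and leaving out each replicate.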

Additional observations from a re-analysis of the deposited data

Results flagged for a closer look

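The size of an effect on a copy differed between inductions, by the interaction test of the same edgeR model with Benjamini-Hochberg adjustment over all genes, in the following cases. Each value is the difference of 2 log2 fold changes. The effect of Dux knockdown in PlaB was below that in RA by -8.16 for Zscan4a, -8.39 for Zscan4b, -10.37 for Zscan4c, -10.67 for Zscan4d, -9.53 for Zscan4f and -9.59 for Zscan4-ps1. In Zscan4 OE it was below that in RA by -7.81 for Zscan4a, -6.62 for Zscan4b, -6.32 for Zscan4c and -6.40 for Zscan4d, but by -1.39 for Zscan4f and -2.04 for Zscan4-ps1. The value of Zscan4b rests on 2 and 1 counts in Dux KD Zscan4 OE. Between PlaB and Zscan4 OE the knockdown effect was lower in PlaB by -4.05 for Zscan4c, -4.26 for Zscan4d, -8.15 for Zscan4f and -7.55 for Zscan4-ps1. The knockout of the Tdpoz super-enhancer lowered the copies less in Dux OE than in RA, with differences of 2.21 for Zscan4a, 1.48 for Zscan4b, 2.02 for Zscan4c, 2.03 for Zscan4d, 2.23 for Zscan4f and 1.95 for Zscan4-ps1. Against PlaB the differences were 1.94 for Zscan4a, 2.86 for Zscan4c, 2.86 for Zscan4d, 3.00 for Zscan4f and 2.12 for Zscan4-ps1. For Duxf3 the knockdown effect in PlaB was below that in RA by -5.99, a value that rests on 1 count in Dux KD PlaB. The knockout lowered Duxf3 less in Dux OE than in RA, with a difference of 1.78. The inductions differ in agent, in time and in the Duxf3 left by the knockdown as well, and these cannot be told apart from the system.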

How the results depend on the processing

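Of 1374 values of single copies under an alternative, 1366 kept their direction and their call, which takes both thresholds together. The replicate block changed none of 120 such values and left all 20 counts of called copies within 1.5 times, and the numbers of the replicates pair nothing in the labels. With the replicate block, Zscan4b in Dux KD RA against RA changed by -1.355. Without the fold criterion, 5 copies in place of 1 passed in Dux KD RA against RA, and 4 in place of 0 in the difference of the super-enhancer effect between PlaB and RA. Leaving out replicates gave 0 to 1 calls in that difference (1, Zscan4d at -1.005, without SE KO PlaB replicate 1) and 3 to 4 in SE KO Dux OE against Dux OE, where Zscan4-ps1 was at -0.97 without the low-count filter, at -0.99 without Dux OE replicate 2 and at -0.90 without SE KO Dux OE replicate 2. With library-size scaling Zscan4b reached the fold threshold in the knockout effect of Dux OE against PlaB (1.02). Values near 0 changed sign for Zscan4a in the knockdown effect of PlaB against Zscan4 OE, to 0.11 without Dux KD PlaB replicate 2 (-0.75 without replicate 1) and to 0.0045 without Dux KD Zscan4 OE replicate 2, and for Zscan4-ps1 in the knockout effect of PlaB against RA, to 0.15 without SE KO PlaB replicate 2 (-0.52 without replicate 1). Zscan4d led the shares in 8 groups, and in 7 with either replicate left out. Per kilobase of windows held by 1 copy alone, a scale chosen after seeing the data, it was highest in 0 groups, because the denominator of Zscan4b, Zscan4c and Zscan4f shrinks most. By Spearman's rho, 4 of the 10 genes most like the family remained. Depth limits DuxR70A OE, with 14 and 8 counts over the family, and the cause of the changes with single libraries was not tested. Where 1 library of a group was left out, the lone one was assumed to vary like the other groups.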
